A study of Mus musculus with 27 samples.

Results

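STAT5B knockdown was compared with a hairpin that has no target in Ba/F3, a pro-B cell line of the mouse that needs the cytokine IL3 to survive and grow. The comparison takes the 3 libraries labelled as STAT5B knockdown and the 5 labelled as no-target hairpin, 8 of the 27 libraries of the series. Members were chosen by their labels, with no measured value in the choice. All 8 libraries hold polyA RNA from cells that carried a lentiviral hairpin, were kept in puromycin for at least 1 week, went without IL3 for 6 h and then received IL3 at 10 ng/mL for 30 min. Set beside them were a STAT5A knockdown treated in the same way (n = 3 libraries), untransduced wild-type cells given IL3 on the same schedule (n = 5), and wild-type cells left without IL3 after the 6 h (n = 5). Per the labels, libraries within a group are biological replicates, with nothing said on whether they came from separate transductions, so p-values measure the spread between the libraries, which may be technical. The sequence and number of the hairpins are not given in the sources used here.

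IL3 binds a receptor whose associated kinase JAK2 phosphorylates the transcription factors STAT5A and STAT5B. The phosphorylated proteins pair, enter the nucleus and bind short palindromic DNA elements near genes such as Cish and Socs3, which encode feedback inhibitors of the receptor, and Pim1, which encodes a survival kinase. STAT5A and STAT5B are close copies encoded by neighbouring genes and share most of their DNA sites, so loss of one leaves the other in place.

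Reads counted in genes numbered 8.53 to 18.8 M per STAT5B library and 6.93 to 17.6 M per no-target library. Of reads placed in 1 gene, in several or in none, those in none made up 14 and 17.4% in no-target replicates 1 and 3 and 9.45 to 12% in the other 6 libraries. STAT5B replicate 3 lay at -57.8 on the first and -45.4 on the second principal component, the lowest of the 8 libraries on both, the components holding 41.5 and 18.9% of the variance. Results that rest on it are given with and without it. Of 28 B-lineage markers, Cd79a and Cd79b, which encode the signalling chains of the B-cell receptor, were present at 24.2 to 58.5 and 15.9 to 46.3 CPM (read counts relative to library size, scaled by the trimmed mean of M values), whereas 20 stayed under 1 CPM in all 8 libraries. Ebf1, a master regulator of early B cells, had 0 reads in all 8, and Pax5, which keeps B-cell identity, had 2 reads over the 8.

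Stat5b, the targeted gene, fell in all 3 STAT5B libraries, and no difference in Stat5a passed the test. Stat5b (chr11:100780731-100850724, minus strand, GRCm38) was at 33.7, 29.3 and 36.0 CPM in STAT5B replicates 1 to 3 and at 134, 121, 126, 103 and 95.3 CPM in no-target replicates 1 to 5. The groups did not overlap, and the log2 fold change was -1.81 ± 0.17 (SE; adjusted p = 9.84e-07, edgeR quasi-likelihood test, Benjamini-Hochberg over 12073 genes). Stat5a (chr11:100859351-100885169, plus strand), the next gene along the chromosome, was at 61.7, 89.8 and 75.0 CPM against 92.0, 70.5, 73.1, 50.5 and 75.3 CPM. Its groups overlapped throughout, with a log2 fold change of 0.06 ± 0.17 (adjusted p = 0.855) whose sign turned under 3 of 18 alternative settings.

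To set both genes side by side, levels were divided by exon length, the union of all exons of a gene in GENCODE vM21. This was 5539 bases for Stat5b and 7133 for Stat5a, and the sums and shares below depend on these lengths. Per kb of exon, the no-target libraries held 20.9 ± 2.92 CPM of Stat5b and 10.1 ± 2.08 CPM of Stat5a (mean ± SD, n = 5). The STAT5B libraries held 5.96 ± 0.613 CPM per kb of Stat5b and 10.6 ± 1.97 of Stat5a (n = 3). Stat5b thus stood at 28.5% of its no-target level, and the sum of both transcripts was 16.6 ± 1.63 against 31.0 ± 4.49 CPM per kb, or 53.3% (exact two-sided permutation test over 56 splits, p = 0.0179, the smallest it can give). The sum includes the targeted gene, so this p is no evidence apart from the fall of Stat5b itself. Stat5b made up 67.5 ± 3.99% of the summed STAT5 transcript in no-target cells and 36.4 ± 6.07% after the knockdown. In the STAT5A knockdown, the sum was at 63.1% of the no-target level. The plot of both transcripts by library shows the same order.

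**Figure D1:**
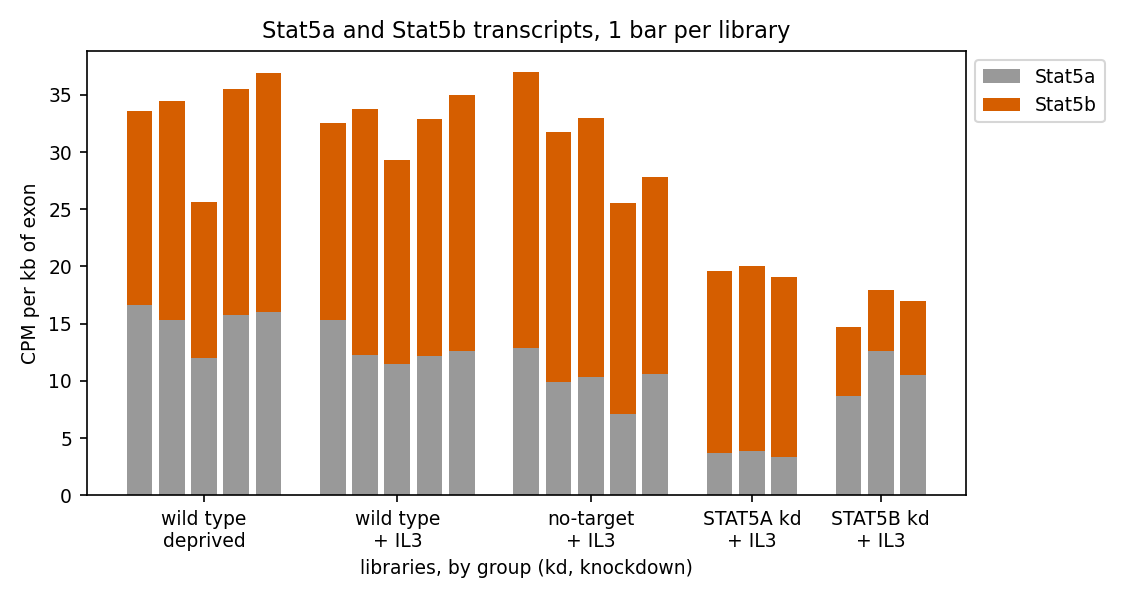
Stat5a (grey) and Stat5b (orange) transcript levels in CPM per kb of exon, stacked, with 1 bar per library and libraries grouped by treatment. In the 3 STAT5B knockdown libraries the Stat5b part is short while the Stat5a part lies within the no-target range, and the group's sum averages 53.3% of the no-target mean.

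Beyond Stat5b, the genes that passed the test ranged from signalling and chromatin proteins among the falls to lysosomal and innate immune proteins among the rises. Of 12073 genes tested, 41 (0.34%) were called at an adjusted p under 0.05, 25 higher (0.207%) and 16 lower including Stat5b (0.133%). Of the 25, 22 were at least 2-fold higher and 9 had a mean under 5 CPM, and of the 16, 7 were at least 2-fold lower. The groups did not overlap for 37 of the 41, beside 5.72% of all genes tested. The 41 were selected on the same 8 libraries, so this count is in part fixed by the selection. At an unadjusted p under 0.05, 1925 genes stood out, 936 higher and 989 lower (15.9% of those tested).

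The number of calls depended on the model and on single libraries. A fit of only these 8 libraries called 1 gene (1087 at an unadjusted p under 0.05). By DESeq2 the number was 151, and leaving out 1 library gave 171 (STAT5B 1), 13 (STAT5B 2), 5 (STAT5B 3), 9, 56, 10, 8 and 23 genes (no-target 1 to 5 in turn). The 5 called without STAT5B replicate 3 were Stat5b, B4galnt4, Rbm28, Stfa1 and a clone-named gene, the last 2 being higher. In 17 of the 25 genes called higher, replicate 3 was the highest STAT5B library, and in 9 of the 16 called lower it was the lowest.

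**Figure D2:**
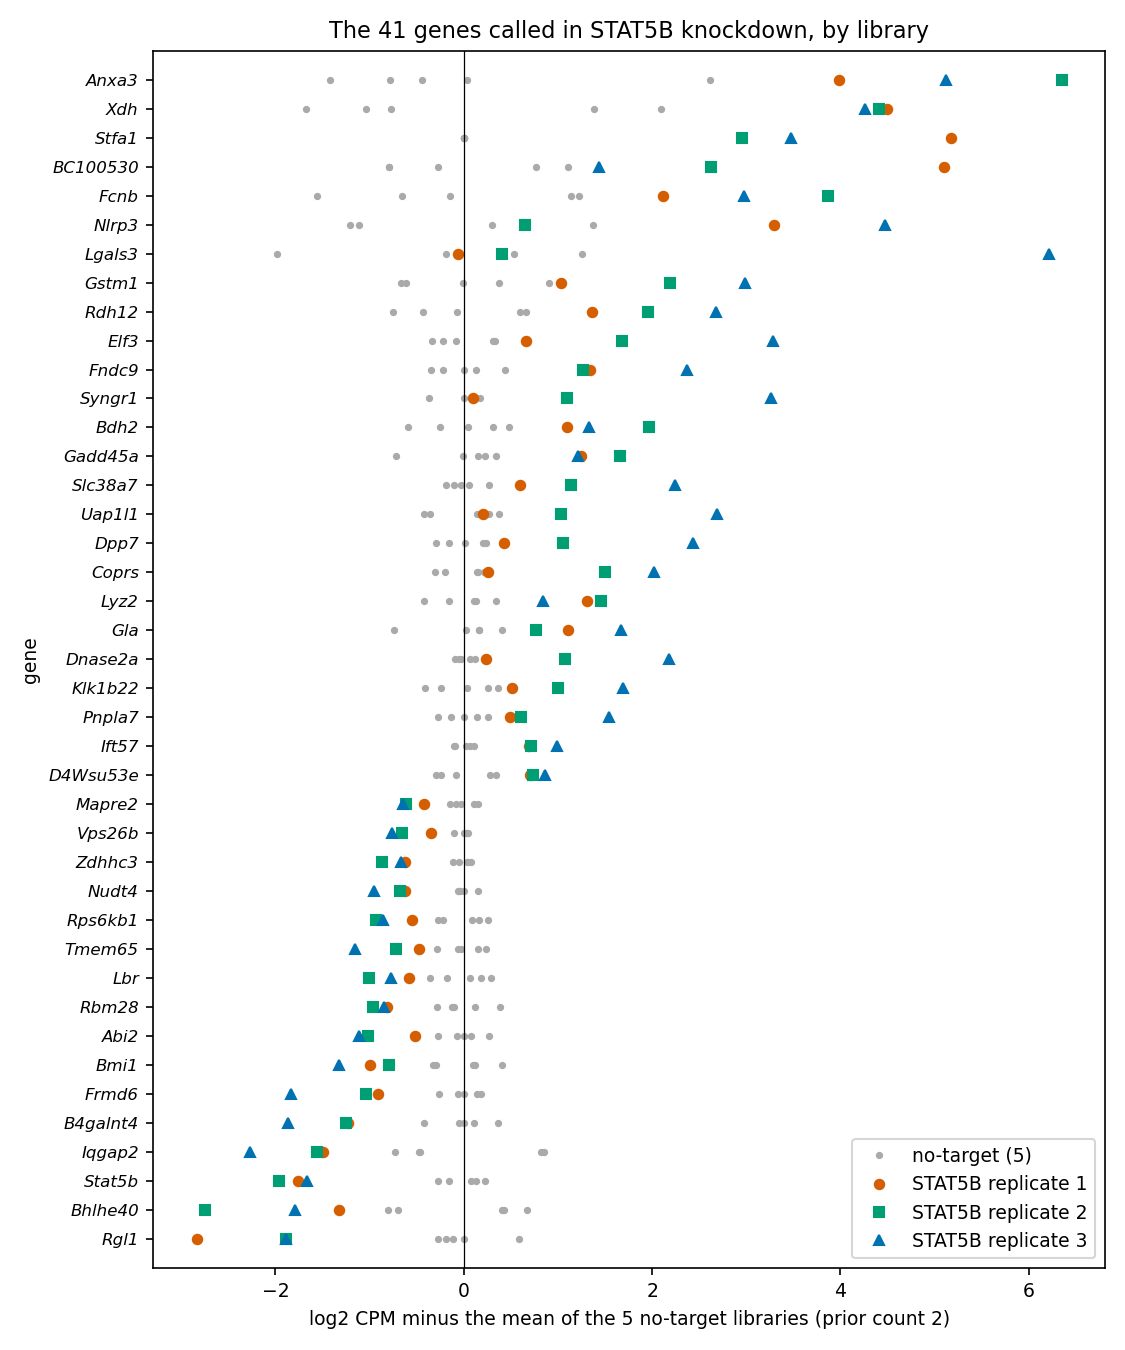
Level of each of the 41 called genes in every library, as log2 CPM minus the mean of the 5 no-target libraries (grey points), with the 3 STAT5B libraries as coloured symbols. All 3 STAT5B libraries lie left of 0 for the falls, while in 17 of the 25 rises replicate 3 (triangles) lies farthest to the right.

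The 15 genes that fell besides Stat5b include signalling and cytoskeletal proteins, chromatin and nucleolar factors and membrane enzymes. Ordered by fold change, the falls with a mean of at least 5 CPM began with Rgl1, which encodes an activator of Ral GTPases. Rgl1 was at 0.996, 2.04 and 2.04 CPM in STAT5B replicates 1 to 3 and at 7.30, 7.94, 11.9, 6.50 and 6.91 CPM in the no-target replicates. Bhlhe40, a transcriptional repressor induced by cytokines, was at 89.2, 33.2 and 64.7 CPM against 128, 298, 301, 356 and 138 CPM. Iqgap2, a scaffold of the actin cytoskeleton, was at 106, 101 and 61.8 CPM against 529, 215, 539, 180 and 216 CPM. All 3 were lower in every STAT5B library than in any no-target library, but the no-target level of Iqgap2 was split, with replicates 1 and 3, the libraries richest in reads outside genes, highest, beside a stimulated wild-type mean of 177 ± 19.3 CPM (n = 5). Log2 fold changes were -2.27 ± 0.45 for Rgl1 (adjusted p = 0.027), -1.97 ± 0.43 for Bhlhe40 (0.0453) and -1.90 ± 0.41 for Iqgap2 (0.0415, edgeR).

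B4galnt4, a glycosyltransferase that adds N-acetylgalactosamine, and Rbm28, a nucleolar RNA-binding protein, had the smallest adjusted p after Stat5b. B4galnt4 was at 4.75, 4.68 and 3.00 CPM against 14.6, 11.4, 10.9, 8.43 and 12.2 CPM (log2 fold change -1.45 ± 0.21). Rbm28 was at 70.1, 63.3 and 68.5 CPM against 162, 102, 134, 114 and 115 CPM (-0.89 ± 0.13). Both had an adjusted p of 0.00119 (edgeR), and each was still called under 16 of 18 alternative settings.

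Among the chromatin and growth regulators, Bmi1, a core subunit of Polycomb repressive complex 1, was at 40.4, 46.6 and 32.3 CPM against 87.8, 64.7, 107, 86.4 and 65.8 CPM. Lbr, the lamin B receptor of the inner nuclear membrane, was at 192, 143 and 169 CPM against 253, 225, 352, 326 and 301 CPM. Rps6kb1, which encodes the growth kinase S6K1, was at 47.6, 36.5 and 38.5 CPM against 83.6, 57.6, 78.1, 74.1 and 59.7 CPM. None of these 3 overlapped between groups, with log2 fold changes of -1.05 ± 0.22, -0.80 ± 0.17 and -0.79 ± 0.16 (adjusted p = 0.0339 for each, edgeR). At the cell cortex, Frmd6, a FERM-domain protein, was at 19.1, 17.5 and 9.96 CPM against 40.8, 39.8, 36.0, 34.5 and 30.0 CPM. Abi2, a subunit of the WAVE complex that drives actin branching, was at 31.2, 22.1 and 20.6 CPM against 42.6, 37.2, 47.1, 54.0 and 45.0 CPM. Here too every STAT5B library lay below every no-target library (-1.21 ± 0.24, adjusted p = 0.0302, and -0.87 ± 0.17, adjusted p = 0.027).

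The 5 further falls were smaller. Zdhhc3, a palmitoyltransferase, Nudt4, a phosphatase of inositol pyrophosphates, Vps26b, a subunit of the endosomal retromer, Tmem65, a mitochondrial membrane protein, and Mapre2, a microtubule end-binding protein, had log2 fold changes between -0.56 and -0.77. Zdhhc3 was at 77.2, 65.3 and 75.0 CPM against 126, 115, 111, 122 and 123 CPM, and Vps26b at 86.4, 70.0 and 65.1 against 102, 111, 114, 113 and 111 CPM. Neither group pair overlapped, and the no-target SD was 6.35 and 4.51 CPM. Zdhhc3 and Vps26b were still called under 11 of 18 alternative settings and Nudt4 under 12, whereas Tmem65 and Mapre2 were called under 5 and 4.

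The 25 genes called higher include proteins of granules, lysosomes and inflammation, and most were highest in STAT5B replicate 3. Anxa3, a calcium-dependent phospholipid-binding annexin of myeloid cells, was at 5.39, 28.3 and 12 CPM in STAT5B replicates 1 to 3 against 0, 2.01, 0.127, 0.226 and 0.072 CPM in the no-target replicates. All 3 libraries lay above the controls, with a log2 fold change of 5.06 ± 0.94 (adjusted p = 0.022, edgeR). Rdh12, a retinol dehydrogenase, was at 5.68, 8.64 and 14.4 CPM against 1.22, 1.54, 2.03, 3.28 and 3.46 CPM (2.00 ± 0.39, adjusted p = 0.027). Gadd45a, a stress-induced growth-arrest gene, was at 49.8, 66.6 and 48.7 CPM against 12.7, 26.7, 20.9, 23.4 and 24.6 CPM (1.34 ± 0.30, adjusted p = 0.0478). Gadd45a was not highest in replicate 3, unlike 8 of the 10 leading rises.

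Lgals3 and Syngr1 rested largely on replicate 3. Lgals3, which encodes galectin-3, was at 0.879, 1.27 and 78.2 CPM in the STAT5B libraries against 0.135, 2.37, 1.39, 1.24 and 0.792 CPM. Only replicate 3 was above the no-target range, and the log2 fold change of 4.47 ± 0.89 (adjusted p = 0.027) became -0.14 without it. Syngr1, a vesicle membrane protein, was at 8.96, 18.1 and 81.5 CPM against 9.05, 9.48, 6.46, 8.37 and 8.93 CPM, and its log2 fold change of 2.08 ± 0.39 (adjusted p = 0.0224) was 0.68 (adjusted p = 0.667) without replicate 3. Replicate 1 of Syngr1 lay within the no-target range.

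In the other 5 leading rises too, replicate 1 was the lowest and replicate 3 the highest STAT5B library. Uap1l1, which encodes a protein related to a nucleotide-sugar enzyme, was at 91.6, 163 and 511 CPM against 61.7, 103, 59.4, 95.7 and 87.6 CPM. Slc38a7, a lysosomal amino acid transporter, was at 16.0, 23.4 and 50.4 CPM against 10.9, 9.83, 9.25, 10.3 and 12.7 CPM. Coprs, a histone-binding partner of the methyltransferase PRMT5, was at 16.2, 38.6 and 55.2 CPM against 10.9, 14.9, 11.8, 15.1 and 15.8 CPM. These 3 had log2 fold changes of 1.64 ± 0.37, 1.49 ± 0.28 and 1.41 ± 0.30 (adjusted p = 0.0492, 0.0224 and 0.0391, edgeR). Without replicate 3 they were 0.65, 0.89 and 1.00 (adjusted p = 0.787, 0.369 and 0.488), and replicate 1 of Uap1l1 lay inside the no-target range. The remaining 2, Dpp7 and Dnase2a, are lysosomal enzymes and are described with that list.

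Set against stimulated wild type, several of these differences were smaller. Uap1l1 stood at 161 ± 24.5 CPM and Coprs at 29.0 ± 4.00 CPM in wild type (n = 5), so STAT5B replicate 1 was below the wild-type mean for both. Their log2 fold changes against wild type were 0.66 (adjusted p = 0.771) and 0.33 (adjusted p = 0.986).

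The 13 further named genes called higher include inhibitors, enzymes and receptors of innate immune cells at low levels. Stfa1, a stefin that inhibits cathepsins, had 78, 16 and 11 reads in the STAT5B libraries and 0 reads in all 5 no-target libraries. Against a floor of 3 counts over the no-target group, this is at least 43.3-fold higher, and it was called under all 17 alternatives that tested it. The fit of only these 8 libraries, in which 1 gene was called, is not among those 17. Xdh, which encodes the urate-forming enzyme xanthine dehydrogenase, was at 9.20, 8.70 and 7.80 CPM against 0 to 1.65 CPM in the no-target libraries, with 3 even STAT5B libraries (4.08 ± 0.85, adjusted p = 0.0339, and 4.15 without replicate 3). Nlrp3, the sensor of the NLRP3 inflammasome, was at 5.51, 0.771 and 12.6 CPM against 0.118 to 1.36 CPM, with replicate 2 inside the no-target range (3.26 ± 0.65, adjusted p = 0.027).

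Fcnb, a lectin of neutrophil granules, and Elf3, an ETS transcription factor, were higher by 3.28 and 2.43 on the log2 scale from no-target levels of 0 to 0.76 and 0.405 to 0.72 CPM. Lyz2, the lysozyme of macrophages and granulocytes, was at 13.8, 15.4 and 9.96 CPM against 4.06 to 6.99 CPM (1.23 ± 0.27, adjusted p = 0.0453). Gstm1, a glutathione transferase, Klk1b22, a kallikrein, and Bdh2, a dehydrogenase, rose by 2.23, 1.12 and 1.61 on the log2 scale. Ift57, a subunit of the intraflagellar transport complex, was at 72.6, 74.0 and 89.4 CPM against 41.8 to 48.6 CPM (0.80 ± 0.16, adjusted p = 0.027). Fndc9 and the lysophospholipase gene Pnpla7 were higher by 1.95 and 0.95. Without replicate 3, Elf3 was at 1.40, Klk1b22 at 0.75 and Pnpla7 at 0.55, none of them called. Reads of Stfa1, Gstm1, Klk1b22 and Lyz2 can be shared with near-identical neighbours of their gene families, so their split between copies is uncertain. The remaining 2 called genes carry clone names, and 1 of them lies close to Stfa1 on chromosome 16 (starts at 36359382 and 36276951). That gene and Stfa1 were both highest in STAT5B replicate 1, so they may not be separate rises.

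A second control, stimulated wild type, gave the same sign for every one of the 41 genes, with fewer calls. Against wild type, 23 genes were called (0.191%), 15 higher (0.124%) and 8 lower (0.0663%). Of the 41, 6 of the 16 lower and 5 of the 25 higher were called in the same direction there. The named ones were Stat5b, B4galnt4, Rbm28, Rgl1, Nudt4 and Zdhhc3 among the falls, and Lgals3, Nlrp3, Stfa1 and Xdh among the rises. Because the STAT5B libraries enter both comparisons, the second is not independent of the first. Between no-target and stimulated wild-type cells, 0 genes were called by edgeR, with 2042 (16.9%) at an unadjusted p under 0.05.

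Direct comparison of the STAT5B with the STAT5A knockdown, which uses no control library, called 3 genes (0.0248%). Stat5b was lower by 1.42 ± 0.18 and Stat5a higher by 1.54 ± 0.19 on the log2 scale (adjusted p = 0.000222 for each, edgeR). The third was Vps26b, lower by 0.69 ± 0.11 in the STAT5B knockdown (adjusted p = 0.011), where the STAT5A libraries held 119 ± 3.68 CPM (n = 3). For Rbm28 the difference was -0.73 ± 0.14 (adjusted p = 0.0655) and for Zdhhc3 -0.67 ± 0.13 (adjusted p = 0.1), both short of the threshold. Of the 41 genes, 29 differed between the knockdowns at an unadjusted p under 0.05, beside 3.39% of all genes tested. These were 15 of the 16 lower and 14 of the 25 higher, beside 1.64% of all genes lower and 1.75% higher in the STAT5B knockdown at that p. The 41 were selected on the same 3 STAT5B libraries that enter this contrast, so these shares are in part fixed by the selection and give no test.

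At an unadjusted p under 0.05, the exception among the falls was B4galnt4. It was at 4.14 ± 0.988 CPM in the STAT5B and 4.10 ± 1.07 CPM in the STAT5A knockdown. Against no-target, 8 genes were called in the STAT5A knockdown (0.0663%), and B4galnt4 was among them. Its log2 fold changes against the shared no-target libraries were -1.45 and -1.49 (adjusted p = 0.00119 and 0.00111), and the difference between knockdowns was 0.04 ± 0.22. Among the rises, Gadd45a had 1.34 and 1.70 (adjusted p = 0.0478 and 0.0214) and Anxa3 5.06 and 4.83 (adjusted p = 0.022 and 0.0459) in the STAT5B and STAT5A knockdowns. Of the genes called in the STAT5B knockdown, 15 of the 16 lower and 24 of the 25 higher had the same sign in the STAT5A knockdown. After adjustment, 2 of the 41 differed between the knockdowns, Stat5b and Vps26b. Both comparisons with no-target use the same 5 no-target libraries, so these values and signs are not independent of each other.

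Of the genes that IL3 induced in wild type, 1 was called in the STAT5B knockdown, and several others had lower levels that did not pass the test. In wild type, 217 genes (1.8%) were called higher by at least 1 on the log2 scale after 30 min of IL3, and 41 (0.34%) were called lower by as much. In the STAT5B comparison, 1 of the 217 was called lower (0.461%, beside 0.133% of all genes tested) and 0 higher. The median log2 fold change of the 217 was -0.19, beside -0.01 over all genes, with 154 below 0. In the STAT5A knockdown against the same no-target libraries, the median of the 217 was -0.19 too. The 41 repressed genes had a median of 0.21, with 31 above 0 and 0 called. At an unadjusted p under 0.05 (edgeR), 5 of them were higher and 0 lower, beside 7.75 and 8.19% of all genes.

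The called gene was Bhlhe40, which IL3 raised from 35.9 ± 12.6 to 112 ± 9.62 CPM in wild type (n = 5 each). Its no-target level of 244 ± 104 CPM was above that of stimulated wild type, and the STAT5B level of 62.4 ± 28.0 CPM lay between the deprived and stimulated wild-type means. Against stimulated wild type its log2 fold change was -0.85 (adjusted p = 0.677).

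Cish, Pim1 and Serpina3g, all on the list of STAT5 targets, were lower in every STAT5B library than in any no-target library without passing the test. Cish, the feedback inhibitor CIS, was at 325, 235 and 275 CPM against 387, 668, 338, 686 and 516 CPM, with a deprived wild-type mean of 16.9 ± 4.42 CPM. Pim1 was at 279, 201 and 201 CPM against 655, 426, 601, 442 and 469 CPM, with 15.1 ± 5.83 CPM in deprived wild type. Serpina3g, a serpin that inhibits cathepsins inside the cell, was at 1.05, 4.51 and 1.44 CPM against 6.62, 21.0, 13.2, 8.48 and 8.42 CPM, where reads can be shared with near-identical Serpina3 copies. Log2 fold changes were -0.90 ± 0.30 (adjusted p = 0.191), -1.19 ± 0.31 (0.0939) and -2.26 ± 0.60 (0.102, edgeR). Groups that do not overlap in this way were found for 5.72% of all genes tested. Cish and Pim1 thus stayed more than 10-fold above their deprived level in all 3 STAT5B libraries. In the STAT5A knockdown, Cish, Pim1 and Serpina3g were at 285 ± 58.4, 306 ± 88.8 and 2.03 ± 0.278 CPM (n = 3). Against the same no-target libraries, their log2 fold changes there were -0.86, -0.76 and -2.51 (adjusted p = 0.52, 0.566 and 0.198, edgeR).

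Other feedback and cytokine genes divided the STAT5B libraries. Socs1, a feedback inhibitor of JAK kinases, was at 47.9 and 53.7 CPM in STAT5B replicates 1 and 2, below all no-target libraries (136, 182, 99.9, 169 and 222 CPM), and at 305 CPM in replicate 3, above them all. Socs3 was at 45.4, 58.4 and 216 CPM against 514, 194, 76.0, 219 and 278 CPM. Osm, the cytokine oncostatin M, was at 267, 330 and 1260 CPM against 1290, 214, 1110, 811 and 2310 CPM. Replicate 3 was the highest STAT5B library for all 3 genes. Their log2 fold changes of -0.26, -1.27 and -0.89 (adjusted p = 0.753, 0.31 and 0.392) were -1.67, -2.30 and -1.94 without replicate 3 (adjusted p = 0.0651, 0.425 and 0.441). In the STAT5A knockdown the means were 68.6 ± 15 CPM for Socs1, 45.9 ± 4.04 for Socs3 and 299 ± 118 for Osm (n = 3).

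No immediate early or BCL2 family gene was called (0 of 39 and 0 of 11), beside 0.34% of all genes tested. With that share, lists of this size can hold 0 calls without differing from other genes. At an unadjusted p under 0.05 (edgeR), 3 immediate early genes were higher and 2 lower, and 2 BCL2 family genes were higher and 2 lower. Log2 fold changes were -0.45 for Egr2, -1.32 for Fos, -0.86 for Csrnp1, 0.27 for Id1 and -0.21 for Mcl1 (adjusted p between 0.156 and 0.62). Socs2 and the survival gene Bcl2l1, often listed as STAT5 targets, were at 0.07 ± 0.18 and -0.02 ± 0.35, and neither was called after IL3 in wild type (adjusted p = 0.295 and 0.569). Of the 24 tested genes on a list of STAT5 targets, 0 were called and 18 were below 0 (median -0.30). At an unadjusted p under 0.05, 6 were lower and 0 higher, beside 8.19 and 7.75% of all genes. By library, the list's median was -0.39, -0.37 and -0.34 in STAT5B replicates 1 to 3 and -0.08 to 0.07 in the no-target libraries, relative to the no-target mean. In the STAT5A knockdown against the same no-target libraries, the list's median log2 fold change was -0.31.

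**Figure D3:**
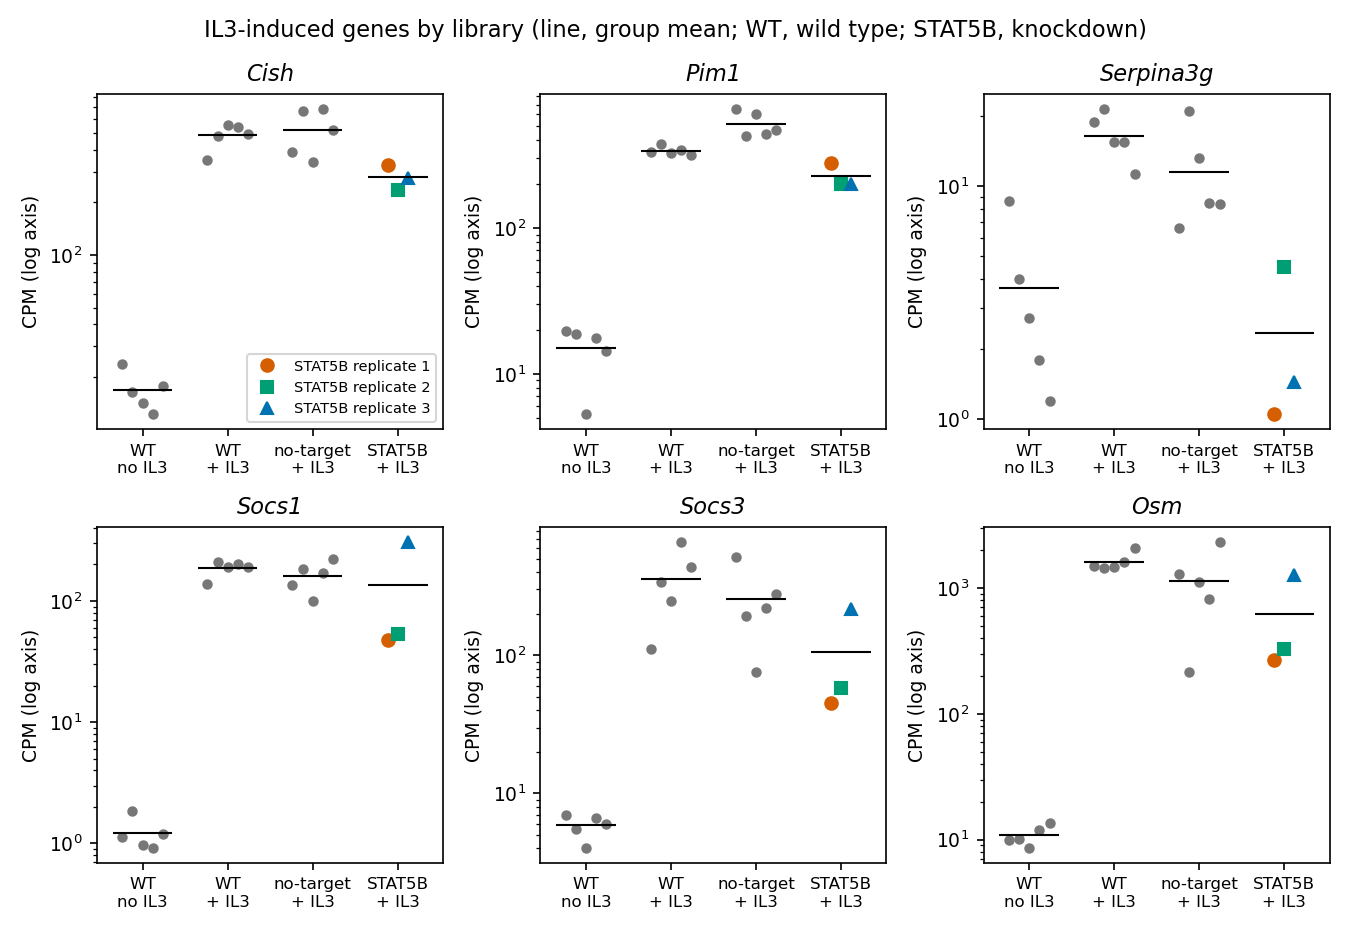
Levels in CPM (log axis) of 6 IL3-induced genes in each library of deprived wild type, stimulated wild type, no-target and STAT5B knockdown, with lines at group means. For Cish, Pim1 and Serpina3g all 3 STAT5B libraries lie below the no-target libraries, while for Socs1, Socs3 and Osm replicate 3 (triangle) lies apart from replicates 1 and 2.

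STAT5 proteins bind the palindrome TTCNNNGAA, so the upstream sequences of these genes were read for it. Promoter windows were the 250 bases before each start in RefSeq (GRCm38.p6), and 7.02% of all 32851 windows held the motif. For the STAT5 target list, 20 of 29 genes matched 27 windows, and 4 windows (14.8%) of 3 genes held it, 2 of these genes having been tested, Socs3 and Serpina3g. Both windows are given 5′ to 3′ on the gene's strand, with the motif in capitals, 154 to 146 bases before the start of Socs3 (chr11:117969367-117969616, minus strand) and 33 to 25 bases before that of Serpina3g (chr12:104235897-104236146, plus strand).
Socs3: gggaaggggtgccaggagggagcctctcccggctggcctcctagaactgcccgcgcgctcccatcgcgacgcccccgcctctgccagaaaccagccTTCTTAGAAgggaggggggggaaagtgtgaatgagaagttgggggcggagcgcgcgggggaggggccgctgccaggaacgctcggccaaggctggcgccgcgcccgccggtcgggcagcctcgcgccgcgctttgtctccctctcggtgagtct
Serpina3g: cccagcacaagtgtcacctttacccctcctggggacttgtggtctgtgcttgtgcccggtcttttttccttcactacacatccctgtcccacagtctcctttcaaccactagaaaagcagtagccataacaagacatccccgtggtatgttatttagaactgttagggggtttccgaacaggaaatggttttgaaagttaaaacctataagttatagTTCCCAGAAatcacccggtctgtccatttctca
Starts are those of RefSeq. In GENCODE vM21 the outermost start of Socs3 lies farther upstream, so this window is inside the gene as placed there, and that of Serpina3g lies 98 bases past the RefSeq start. The bases after these 2 RefSeq starts were in no GENCODE transcript of the genes, so the orientation of the windows rests on the RefSeq table. Among the called genes, 0 of 14 windows of the lower and 0 of 21 windows of the higher genes held TTCNNNGAA (12 of 16 and 19 of 25 genes matched). Of the tested genes with the motif in a window, 660 in all, the median log2 fold change was -0.01, as over the 8339 without it. A match is a description of letters in this window, and sites farther from the start were not read.

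Lysosomal genes were mostly higher, and 3 of them were called. The lysosome degrades proteins, lipids and DNA at low pH, with hydrolases whose genes are often switched on together. Of 56 tested genes on the list, 3 were called higher and 0 lower, 31 were higher and 2 lower at an unadjusted p under 0.05 (beside 7.75 and 8.19% of all genes), and 48 were above 0 (beside 48.8% of all genes). The median log2 fold change was 0.45, beside -0.01 for all genes. The list was drawn up with these 3 calls known, so their number is in part fixed by that choice.

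Dpp7, a dipeptidyl peptidase, was at 32.2, 49.6 and 130 CPM in STAT5B replicates 1 to 3 against 21.3, 28.2, 19.4, 24.1 and 27.5 CPM. Dnase2a, the acid nuclease that digests engulfed DNA, was at 42.9, 76.8 and 166 CPM against 38.1, 34.2, 39.5, 35.6 and 35.2 CPM. Gla, the alpha-galactosidase lost in Fabry disease, was at 69.2, 54.7 and 102 CPM against 19.1, 35.8, 35.9, 42.4 and 32.5 CPM. Each gene was higher in all 3 STAT5B libraries than in any no-target library, with log2 fold changes of 1.54 ± 0.29, 1.38 ± 0.29 and 1.18 ± 0.26 (adjusted p = 0.0233, 0.0339 and 0.0453, edgeR). Without replicate 3 they were 0.76, 0.72 and 0.90, and none was called. Against stimulated wild type they were 0.91, 0.46 and 0.99 (adjusted p = 0.283, 0.844 and 0.121, edgeR). Wild type held 37.3 ± 5.30 CPM of Dpp7 and 69.0 ± 9.94 CPM of Dnase2a (n = 5), means above STAT5B replicate 1.

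Next in order of p came Ctsa, the protective protein cathepsin A, Mcoln1, a lysosomal calcium channel, and Cln3, the gene of juvenile Batten disease. Ctsa was at 190, 235 and 437 CPM against 123, 165, 111, 144 and 163 CPM, and Cln3 at 30.1, 33.1 and 58.2 CPM against 19.5, 20.7, 18.2, 25.3 and 24.6 CPM. Neither overlapped between groups, whereas replicate 1 of Mcoln1 (47.6, 76.8 and 97.8 CPM) lay within its no-target range of 40.3 to 48.3 CPM. Log2 fold changes of 1.02 for Ctsa, 0.89 for Cln3 and 0.71 for Mcoln1 had adjusted p of 0.0771, 0.12 and 0.114 (edgeR). Against stimulated wild type they were 0.55, 0.49 and 0.14, and none was called.

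As a whole list, the lysosomal genes had medians of 0.26, 0.35 and 0.63 in STAT5B replicates 1 to 3 and of -0.26 to 0.15 in the no-target libraries. Leaving out replicate 3 gave a median log2 fold change of 0.32, and a term for 2 classes of libraries, rich in reads outside genes or poor in reads mapped to many places, gave 0.27. Against stimulated wild type the median was 0.28, in the STAT5A knockdown against no-target 0.28, and between the knockdowns 0.15. Tfeb, a transcription factor of lysosomal genes and itself on the list, was at 21.0, 26.0 and 19.6 CPM against 19.1 to 27.8 CPM.

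**Figure D4:**
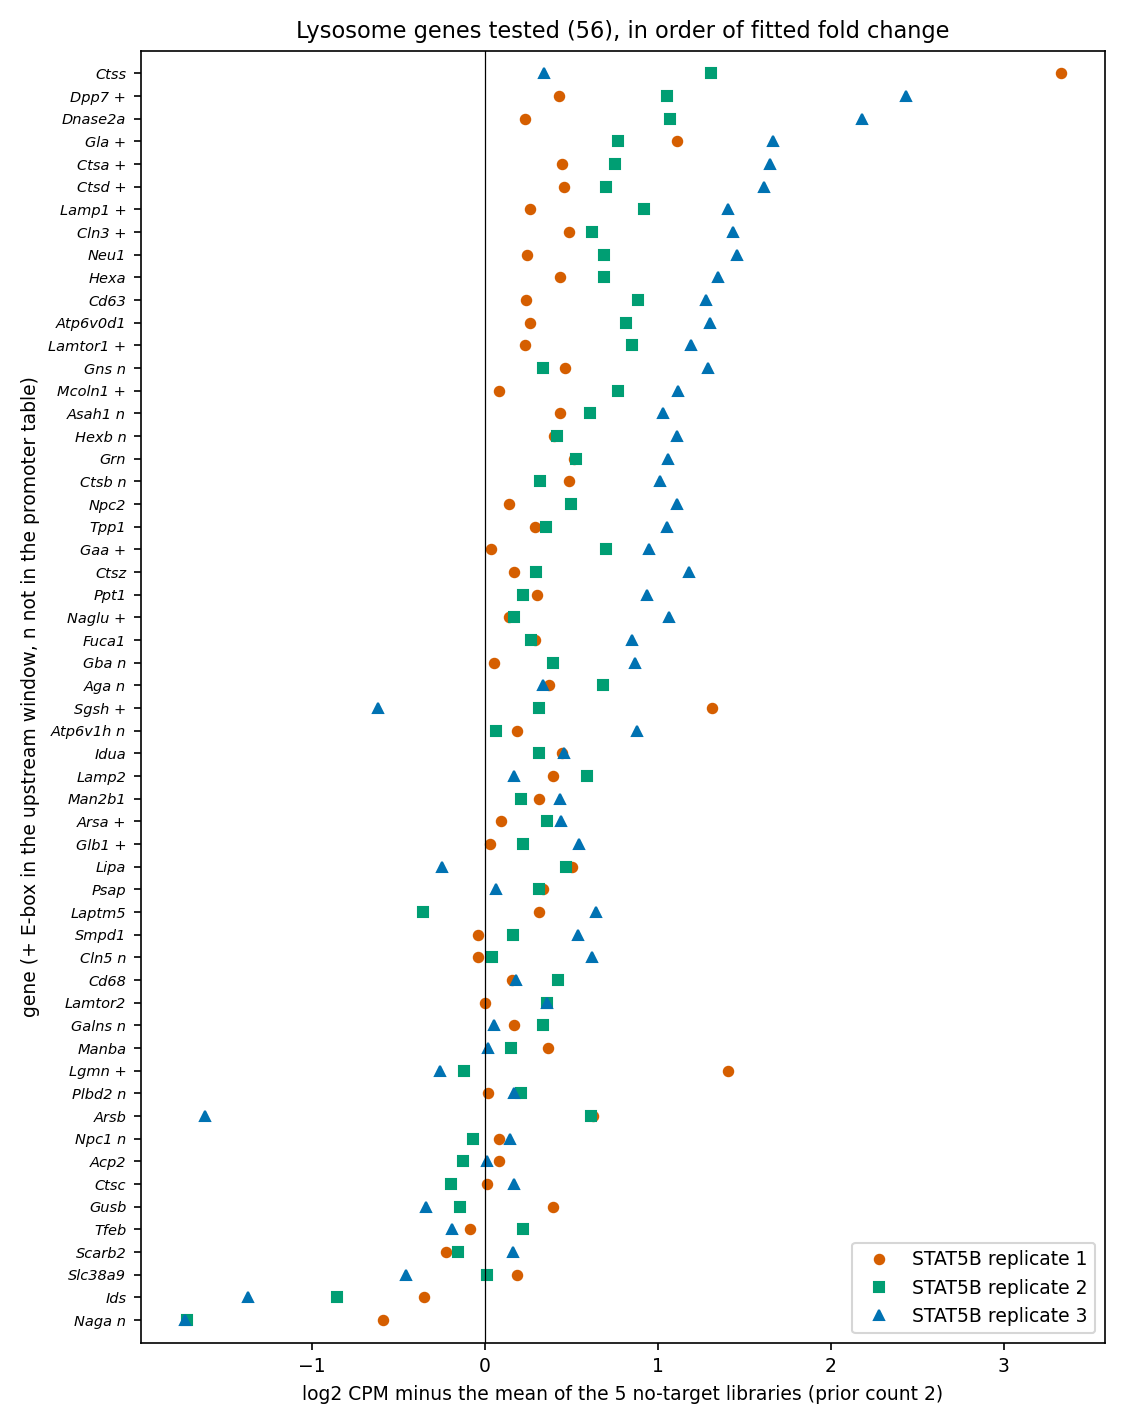
The 56 tested lysosomal genes in order of fitted log2 fold change, with log2 CPM minus the no-target mean for each STAT5B library. Replicate 3 (triangles) lies farthest right for most genes in the upper part, and a plus sign marks genes with the E-box CACGTG in the upstream window.

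Many lysosomal genes carry the E-box CACGTG, extended to TCACGTGA, near their start. Among all windows, 6.02% held CACGTG and 0.785% TCACGTGA, and among the 57 windows of 49 lysosomal genes that matched, 16 (28.1%) and 6 (10.5%) did. CACGTG was also in 4 of 14 windows (28.6%) of the genes called lower and 4 of 21 (19%) of those called higher. TCACGTGA was in 1 and 2 of these windows. The 6 lysosomal genes with TCACGTGA were Dpp7, Gla, Ctsa, Cln3, Mcoln1 and Ctsd, which encodes cathepsin D and was chosen after its values were seen. The upstream sequences of Dpp7, Gla and Mcoln1 are given 5′ to 3′ on the gene's strand with each CACGTG in capitals, because these are also lysosomal genes named for their expression. They stop where GENCODE vM21 places the first transcribed base, which lies inside the RefSeq window for all 3. Their positions are chr2:25356360-25356582 (Dpp7, minus strand), chrX:134601126-134601255 (Gla, minus) and chr8:3500269-3500456 (Mcoln1, plus).
Dpp7: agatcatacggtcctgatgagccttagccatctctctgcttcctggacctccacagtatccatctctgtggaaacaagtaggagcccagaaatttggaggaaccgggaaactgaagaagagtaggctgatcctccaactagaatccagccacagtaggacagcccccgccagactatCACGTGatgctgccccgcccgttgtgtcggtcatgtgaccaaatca
Gla: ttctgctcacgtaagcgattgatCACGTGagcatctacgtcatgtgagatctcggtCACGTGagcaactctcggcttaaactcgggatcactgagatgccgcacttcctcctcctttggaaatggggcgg
Mcoln1: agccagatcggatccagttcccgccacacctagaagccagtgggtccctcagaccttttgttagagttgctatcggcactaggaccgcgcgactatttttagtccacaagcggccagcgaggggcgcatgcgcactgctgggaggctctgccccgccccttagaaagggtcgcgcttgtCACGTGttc
Counted from the RefSeq start, the E-box lies 73 to 68 bases upstream in Dpp7, 227 to 222 and 194 to 189 in Gla, and 71 to 66 in Mcoln1. The E-box printed for Mcoln1 is followed by T, so it reads TCACGTGT. The TCACGTGA of Mcoln1 is another E-box, 45 to 40 bases upstream, inside the part transcribed per GENCODE and not printed. In Ctsa and Cln3 the E-boxes lie 12 to 7 and, for the 2 of Cln3, 149 to 144 and 121 to 116 bases upstream of a RefSeq start, inside 5′ untranslated exons of other GENCODE transcripts.

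The 14 tested lysosomal genes that held CACGTG had a median log2 fold change of 0.73, from 0.12 to 1.54, and all 14 were above 0, 11 of them at an unadjusted p under 0.05. The 30 matched genes without it had a median of 0.29, from -0.85 to 2.20, with 23 above 0 and 13 at that p. The called Dnase2a is among those without the motif, and the difference between the 2 sets was not tested. For the 6 genes with TCACGTGA the range was 0.71 to 1.54 and the median 1.00. Over all tested genes with a window, those with CACGTG had a median of 0.02 (n = 872) and those with TCACGTGA 0.05 (n = 167). In all, 7 motifs were searched after values were seen, on both strands. The others were TTCTNAGAA, which is a form of TTCNNNGAA, the same palindrome with 1 more base between TTC and GAA, CANNTG, which includes CACGTG, and TCACGTGA flanked by G and C. For TTCTNAGAA and CANNTG the shares of all windows were 0.956 and 66.2%. The palindrome with 1 more base was in 5.85% of all windows. It was in 4 of 21 windows (19%) of the genes called higher and 0 of 14 of those called lower.

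Among markers of granulocytes, macrophages and mast cells, 1 was called, and the levels varied widely among the controls. Of 34 tested myeloid markers 1 was called (Lyz2; 0.207% of all genes were called higher). At an unadjusted p under 0.05, 15 were higher and 0 lower, beside 7.75 and 8.19% of all genes, and 28 were above 0, with a median of 0.86. The list's median by library was 0.76, 1.11 and 0.84 in the STAT5B and -0.45 to 0.58 in the no-target libraries. Its summed level was 2670 to 3310 CPM in the STAT5B and 999 to 2540 CPM in the no-target libraries, with 3 markers at 0 reads in all 8, Cebpa, Ly6c1 and Ly6c2. In a fit with the term for library classes the median was 0.54, and in the STAT5A knockdown against the same no-target libraries it was 1.13.

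Mpo, the myeloperoxidase of neutrophil granules, was at 28.4, 206 and 369 CPM against 30.3, 35.5, 16.9, 1.24 and 7.70 CPM. Cd14, a receptor for bacterial lipopolysaccharide, was at 1.99, 11.9 and 3.48 CPM against 0, 0.592, 0.127, 0.0566 and 0.072 CPM. Cebpb, a transcription factor of granulocytes and macrophages, was at 28.9, 65.3 and 201 CPM against 28.1, 37.1, 24.3, 28.5 and 36.9 CPM. Only Cd14 did not overlap between groups, and none of the 3 passed the test (adjusted p = 0.0915, 0.0771 and 0.0915, edgeR).

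For mast cell, basophil and eosinophil markers, 0 of 15 were called, 5 were higher and 0 lower at an unadjusted p under 0.05 (beside 7.75 and 8.19% of all genes), and the median was 1.03, with 0.42 in the STAT5A knockdown. Their summed level was 1990 to 3340 CPM in the STAT5B and 701 to 1610 CPM in the no-target libraries, and Kit and Fcer1a, which encode defining receptors of mast cells, and Ear10 had 0 reads in all 8. Without no-target replicate 2, the control with the highest level of several of these genes, the median was 1.78. Prg2, the major basic protein of eosinophil granules, was at 717, 994 and 1000 CPM against 46.6, 496, 170, 103 and 58.8 CPM. Hdc, which makes histamine, was at 30.8, 72.4 and 224 CPM against 11.8, 21.9, 33.3, 2.88 and 12.7 CPM, and Prss34, a basophil protease, at 0.117, 1.21 and 2.04 CPM against 0 to 0.237 CPM. Prg2 was higher in every STAT5B library than in any control, Hdc and Prss34 were not, and the adjusted p were 0.181, 0.154 and 0.0915. In bulk RNA, more cells of a type and more RNA per cell cannot be told apart. Whether these markers have a part in the lysosomal or other rises was not tested.

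Other lineages showed no calls, beside 0.34% of all genes tested. Of 10 tested B-lineage markers, 2 were lower at an unadjusted p under 0.05, Bank1 and Tcf3 (-0.70 and -0.30, adjusted p = 0.264 and 0.311). At that p, 8.19% of all genes tested were lower. Erythroid and megakaryocyte markers had 0 of 15 called and 3 lower at that p, among them Itga2b, the platelet integrin chain, at 257, 284 and 123 CPM against 344 to 566 CPM, and Zfpm1, the partner of GATA1, at 175, 273 and 59.9 CPM against 238 to 452 CPM. Of 12 tested T and NK markers 0 were called, and 3 were higher and 0 lower at that p, beside 7.75 and 8.19% of all genes. Gzmb, a cytotoxic protease that mast cells can also make, ranged from 3.47 to 194 CPM within the STAT5B group.

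Over all 32 lists, the medians of the 3 STAT5B libraries lay above the whole no-target range for 3, the lysosomal, myeloid and mast cell lists, and below it for 1, the STAT5 targets. Of the 41 called genes, 16 were on at least 1 list, 9 higher and 7 lower. Called members of the remaining lists included Stat5b (1 of 6 STAT genes), Bmi1 (1 of 27 Polycomb genes), Bhlhe40 (1 of 13 clock genes), Rbm28 (1 of 57 ribosome biogenesis genes), Gadd45a (1 of 32 p53 and growth arrest genes), Gstm1 (1 of 34 antioxidant genes), Slc38a7 (1 of 24 amino acid transporters), Rdh12 (1 of 16 retinoid genes) and Anxa3 (1 of 17 annexins and S100 proteins). These lists too were drawn up with the calls known. In ribosome biogenesis, Rrp12 (-1.01, adjusted p = 0.164) followed Rbm28. Of the 57 genes of that list, 6 were lower and 1 higher at an unadjusted p under 0.05, beside 8.19 and 7.75% of all genes.

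Cell cycle genes had 0 of 38 called, beside 0.34% of all genes tested, and a median of -0.22. At an unadjusted p under 0.05, 11 of them were lower and 0 higher, beside 8.19 and 7.75% of all genes. DNA replication genes had 0 of 46 called and a median of -0.02. Glycolysis and hypoxia genes had a median of -0.18 and cholesterol synthesis genes of 0.23, with 0 called in each, and replicate 3 stood at 0.71 for cholesterol synthesis while replicates 1 and 2 stood at -0.39 and -0.22. Acly, which makes the acetyl-CoA for that pathway, was at 128, 129 and 154 CPM against 189 to 291 CPM (-0.73 ± 0.17, adjusted p = 0.0624). Slc7a11, the cystine transporter of the amino acid transporter and antioxidant lists, was at 24.9, 47.2 and 27.6 CPM against 3.38 to 19.0 CPM (2.01 ± 0.55, adjusted p = 0.114).

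Medians of ribosomal protein genes depended on the class of library. Of 81 cytosolic ribosomal protein genes 0 were called and 79 were above 0, with a median of 0.45, but the median was -0.02 with the term for library classes and 0.20 without no-target replicates 1 and 3. Mitochondrial ribosomal proteins (0 of 76 called) went from 0.33 to 0.07 and oxidative phosphorylation genes (0 of 76 called) from 0.28 to -0.04 with that term. The lysosomal, myeloid and STAT5 target medians kept their sign with it, at 0.27, 0.54 and -0.25.

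**Figure D5:**
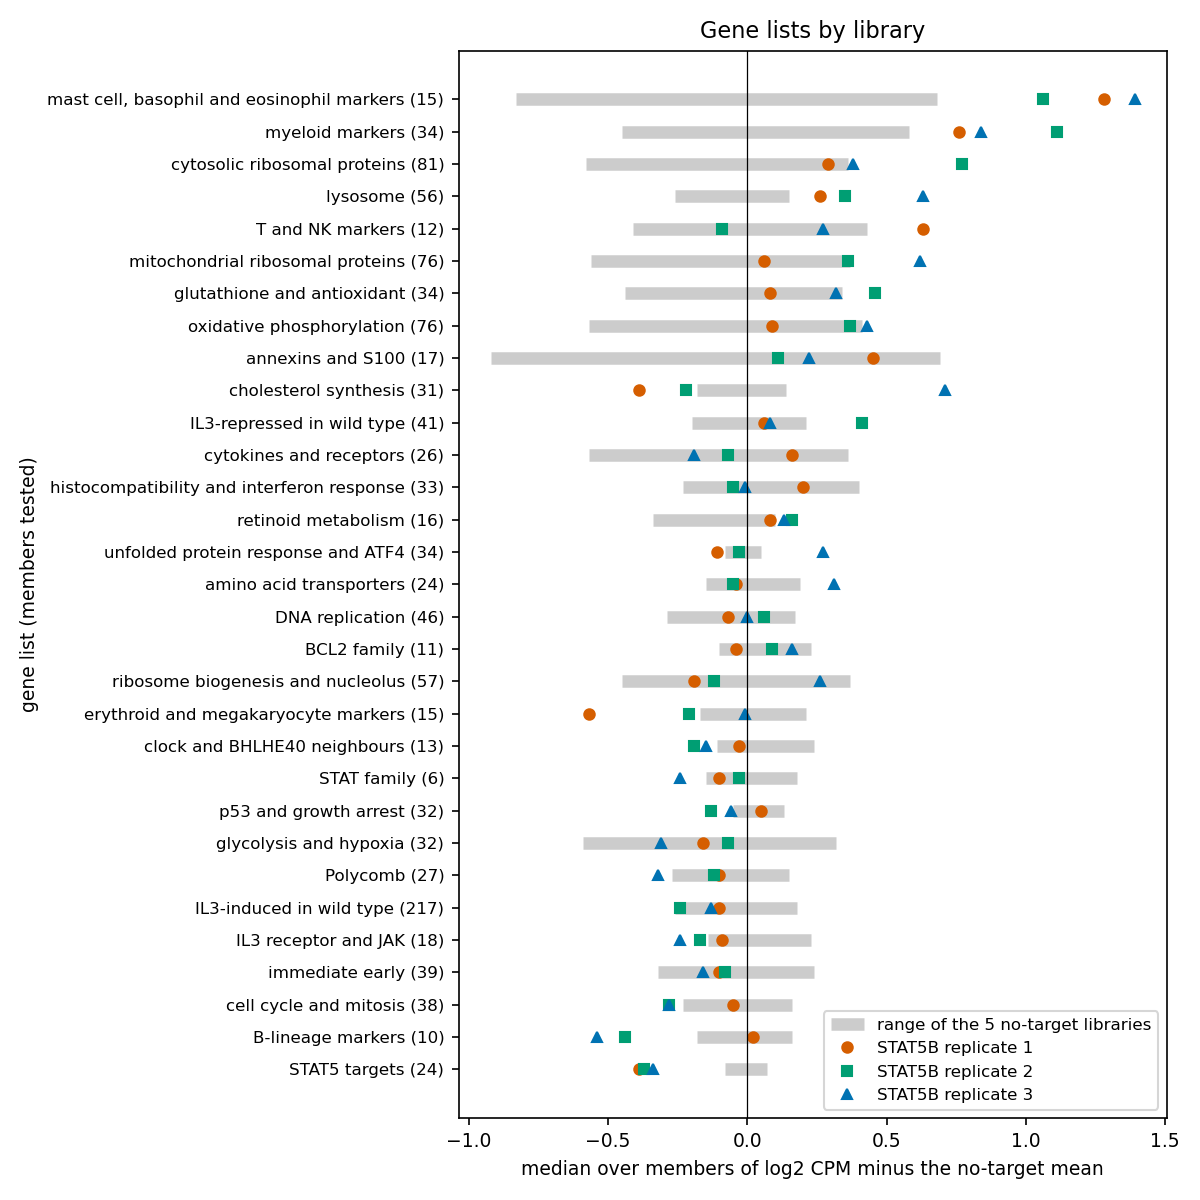
Median over the tested members of each list shown (number in brackets) of log2 CPM minus the no-target mean, for the 3 STAT5B libraries (symbols), with the range of the 5 no-target libraries as a grey bar. The lysosomal, myeloid and mast cell lists lie to the right of their grey bars in all 3 libraries, and the STAT5 targets lie to the left, at -0.34 to -0.39.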

How the data were processed

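RNA was sequenced from 27 libraries, of which 8 form the comparison. The deposited values are raw counts of reads per gene for 24000 genes, which the authors made with HTSeq 0.5.4p5 after Trimmomatic 0.30 and TopHat2 2.0.10 on mm10, per the submitters' processing notes. Those notes give no role for each tool. The 5 HTSeq summary rows were dropped. The library kit does not mark strand, per the labels' protocols, so overlapping and antisense genes cannot be told apart.

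All 27 libraries in 7 groups were fitted with edgeR 4.0.16 (R 4.3.3; quasi-likelihood test, trimmed-mean normalization, default expression filter), with Benjamini-Hochberg adjustment over the 12073 genes kept. On simulated counts at 11822 genes, the STAT5B comparison recovered 54% of 2-fold and 83% of 4-fold changes, and 2.84% of 141 calls were false. Apart from the planted changes, simulated libraries differed only in size and random spread, with no library classes and no outlying library. These rates may therefore not hold for the real libraries. Gene positions are from GENCODE vM21.

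Members, lists and tests were chosen with earlier results of these data known, and the motifs after values were seen. Named genes are the STAT genes and a core set, every called gene without a clone or predicted name, with values by library for the 10 largest falls and rises at a mean of 5 CPM or more, and in each list the called members and up to 3 more by p. Alternatives included DESeq2 1.42.0, fits of fewer libraries and each library left out. Those on library classes were added after the data were seen. Of 13 replicate pairs, none agreed within sampling noise (chi-square per degree of freedom 27.2 to 101). One of the gene lists and one marker are not reported here.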

Additional observations from a re-analysis of the deposited data

Results flagged for a closer look

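Named genes and measures of the reads were checked in 93 groups of 5 libraries. In 11, 1 library lay far from the rest by Dixon's criterion. Independent, normally distributed values meet it in about 1 of 20 groups. Levels here are skewed, some near 0, and genes share libraries, so 11 of 93 does not measure an excess over chance. Among the no-target libraries, replicate 2 was the highest for 4 genes of myeloid, eosinophil and basophil cells. It held 2.01 CPM of Anxa3 (next 0.226), 0.592 CPM of Cd14 (next 0.127), 496 CPM of Prg2 (next 170) and 0.237 CPM of Prss34 (next 0). Replicate 4 held 26.6 CPM of Gzmb (next 7.78), replicate 3 held 11.9 CPM of Rgl1 (next 7.94), and replicate 1 had the lowest Vps26b at 102 CPM (next 111).

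In stimulated wild type, replicate 1 had the lowest Socs1 at 138 CPM (next 190) and replicate 5 the highest Osm at 2080 CPM (next 1600). In deprived wild type, replicate 3 had the lowest Stat5a at 85.6 CPM (next 109) and replicate 2 the highest Socs1 at 1.86 CPM (next 1.19).

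The STAT5B and STAT5A knockdowns differed by edgeR's test in Stat5a (1.54 on the log2 scale, STAT5B minus STAT5A), Stat5b (-1.42) and Vps26b (-0.69). For Vps26b, all 3 STAT5B libraries lay below the STAT5A mean of 119 ± 3.68 CPM (n = 3).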

How the results depend on the processing

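Stat5b stayed called and lower under every alternative run. The 41 calls against no-target, 23 against stimulated wild type and 16 on lists became 18, 12 and 9 with no filter on low counts, 151, 83 and 32 by DESeq2 and 4, 8 and 2 at a threshold of 0.01. With only the groups compared, the calls against no-target and on lists were 1 and 1. Without no-target replicates 1 and 3 they were 7 and 2. Without all 5 libraries rich in reads outside genes, the 3 counts were 11, 59 and 3, with a term for library class 17, 89 and 5, and with the common class alone 5, 72 and 2. Of the 151 calls by DESeq2, 40 were among the 41. The 3 calls between knockdowns became 12 by DESeq2, 6 with the class term, and 0 by edgeR with only these groups (273 at an unadjusted p under 0.05).

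Leaving out 1 library gave 5 to 171 calls against no-target, 9 to 42 against wild type, 2 to 9 between knockdowns and 2 to 34 on lists. For the IL3-induced genes the median ran from -0.24 to -0.14, and for Stat5b the log2 fold change ran from -1.87 to -1.73.

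Same-numbered STAT5B and no-target libraries deviated with correlations of -0.16, 0.0594 and -0.214, and none correlated best with its own number. With so few libraries, these values cannot decide whether same-numbered libraries were handled together. With the replicate number as a block, 8 genes were called against no-target, 2 against wild type and 3 on lists, Stat5b was at -1.95, Stat5a at -0.06 and Bcl2l1 at 0.09.

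Other signs that turned belong to genes that were not called, apart from Lgals3, at -0.14 without STAT5B replicate 3. Stat5a was at -0.08 without STAT5B replicate 2 and -0.04 without no-target replicate 4. Socs1 was at 0.15 and 0.12 without STAT5B replicates 1 and 2. Bcl2l1 was at 0.1 and 0.06 without those, and at 0.29 and 0.08 without no-target replicates 2 and 4. Socs2 was at -0.14 without STAT5B replicate 1, -0.02 without no-target replicate 1, -0.06 without no-target 1 and 3 or without all 5 rich libraries, and -0.05 with the class term or the common class. Over the libraries left out, Stat5a ran up to 0.21, Socs1 down to -1.67, Socs2 up to 0.26, Bcl2l1 down to -0.23 and Lgals3 up to 5.05. The cause was not tested.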
